A study of Mus musculus with 10 samples.

Results

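The mitochondrial solute carriers described here are the genes whose symbol begins with Slc25a followed by a number. In the deposited table of 3′UTR counts, 46 of 21098 genes carried such a symbol, and 31 of the 46 had enough counts to be tested. The RNA came from gastrocnemius (GAS) of male C57BL/6J mice with a wild-type genotype, which all received a high-fat diet (HFD) from 9 weeks of age. After 9 weeks on it these diet-induced obese (DIO) mice entered 14 weeks of weekly subcutaneous injections. The labels give an age of 30 weeks for all mice, and this schedule does not add up to that age. The labels describe feeding until a weight threshold was passed, but the body weights in the study's supplement put part of the CTRL group under it at the first dose and most of that group below the ASO group, and this difference cannot be told apart from the treatment here. In 5 mice (CTRL) the injection was 0.9% saline, and in the other 5 (anti-miR-22 ASO, labelled RES-010) it was 10 mg/kg of an antisense oligonucleotide against miR-22, an LNA mixmer. No lean mice and no oligonucleotide of another sequence were among the libraries used, so the comparison is that of an oligonucleotide with saline in obese mice. The comparison asks which of the transport proteins of the inner mitochondrial membrane differed in transcript level after the inhibition of miR-22.

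Carriers of this family span the inner mitochondrial membrane and exchange nucleotides, phosphate, carboxylates, amino acids and cofactors between the cytosol and the matrix. In skeletal muscle the adenine nucleotide translocase exports the ATP made by ATP synthase, the phosphate carrier imports the phosphate it needs, and the aspartate/glutamate and oxoglutarate carriers together run the malate-aspartate shuttle, which brings reducing equivalents from glycolysis into the matrix. They reach the inner membrane through the TIM22 translocase. A microRNA represses transcripts that carry a match to its seed, most often in the 3′UTR.

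The seed of miR-22 and the places where the carriers could pair with it are shown first, since the treatment blocks that microRNA. The mature sequence is that of RefSeq, with bases 2 to 8 (the seed) in capitals. The lines under it give matches to the heptamer GGCAGCT, the reverse complement of the seed, in capitals with their flanks, from canonical 3′UTRs on GRCm39 and written on the strand of the transcript. They are Slc25a3 (chr10:90951567-90951573, minus strand), Slc25a10 (chr11:120389418-120389424 and chr11:120391471-120391477, plus strand), Slc25a24 (chr3:109075127-109075133, plus strand) and Slc25a25 (chr2:32304848-32304854 and chr2:32304301-32304307, minus strand).
mmu-miR-22-3p: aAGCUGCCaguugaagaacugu
Slc25a3: ggttccagGGCAGCTgggtcttg
Slc25a10, upstream: cggcccgtGGCAGCTtctgctta
Slc25a10, downstream: caggggagGGCAGCTagaagagc
Slc25a24: agttccagGGCAGCTaggggcac
Slc25a25, upstream: gggaaggtGGCAGCTtgacattc
Slc25a25, downstream: gaggctggGGCAGCTcagacctg
With Slc25a53, which had 1 count over the 10 libraries, these carriers made 5 of 46 with a match (10.9%), against 2928 of 20841 protein-coding genes of the table (14%). Per kb of 3′UTR the carriers held 0.0935 matches and all genes held 0.104. A window of 500 bp, the longest counted segment, held a match in 4.97% of cases. Of the carriers with a match, Slc25a3, Slc25a10, Slc25a24 and Slc25a25 were tested and none passed the test, and none of the carriers that passed has a match in its canonical 3′UTR. The letters describe these windows, and no site was tested for binding.

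The libraries held between 1606909 and 2116720 counts in CTRL and between 2239186 and 2632560 with the ASO, so that every ASO library was deeper. Counts had been limited to the last 500 bp of annotated 3′ ends, transcripts subject to nonsense-mediated decay included, so a gene could be counted on several segments, some of them within coding exons or introns of its canonical transcript. Over 1575 genes with both kinds of segment, the median log2 ratio of distal counts (most distal segment) to upstream counts (1000 bp or more away) was between 1.18 and 1.69 in the ASO libraries and between -0.44 and 0.49 in CTRL, with no overlap. The summed level of 12 skeletal muscle markers was between 84637 and 130012 CPM (counts scaled to the library size after edgeR's TMM normalization) with the ASO and between 40595 and 79765 CPM in CTRL, again without overlap. Of the 12 markers 4 were tested, and Acta1, Ckm and Actn3 made up most of the sum. Their means were 59125, 36666 and 8705 CPM with the ASO and 39775, 19247 and 2523 CPM in CTRL. Acta1 did not pass (adjusted p = 0.058 by edgeR), and on the most distal segment alone Ckm had a log2 fold change of -0.07. Tnnt3, Mylpf and Mb, which define this tissue, stood at 0 counts in the table and Myh1 and Tnni2 at no more than 3 per library. The part of these differences in the values below was not tested unless said otherwise, and in bulk tissue fewer cells of a type and less RNA per cell cannot be told apart.

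Of the 31 tested carriers, 3 were lower with the ASO at an adjusted p under 0.05 (edgeR quasi-likelihood test, Benjamini-Hochberg over all 7819 genes tested) and 0 were higher. The carriers that fell were Slc25a22, a mitochondrial glutamate carrier, Slc25a28 (mitoferrin-2), an iron importer, and Slc25a12 (aralar), the aspartate/glutamate carrier of muscle. Among all genes tested 17.5% were called lower and 11.7% higher, so the share of carriers called (9.68% lower) lay under the background in both directions. The median log2 fold change of the 31 was 0.08, against -0.03 for all genes tested, with 17 values above 0 and 14 below. In 2 carriers (6.45%) the groups did not overlap, against 21.4% of all genes tested. Without adjustment 7 of the 31 had p under 0.05 by edgeR, against 3223 of all 7819 genes tested, a larger share. With DESeq2, 3 carriers were lower and 2 higher (Slc25a4 and Slc25a36), where 14.4% and 10.8% of all genes were. The carriers' standard errors were between 0.13 and 0.89 on the log2 scale (median 0.22, and 0.23 over all genes tested).

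**Figure D1:**
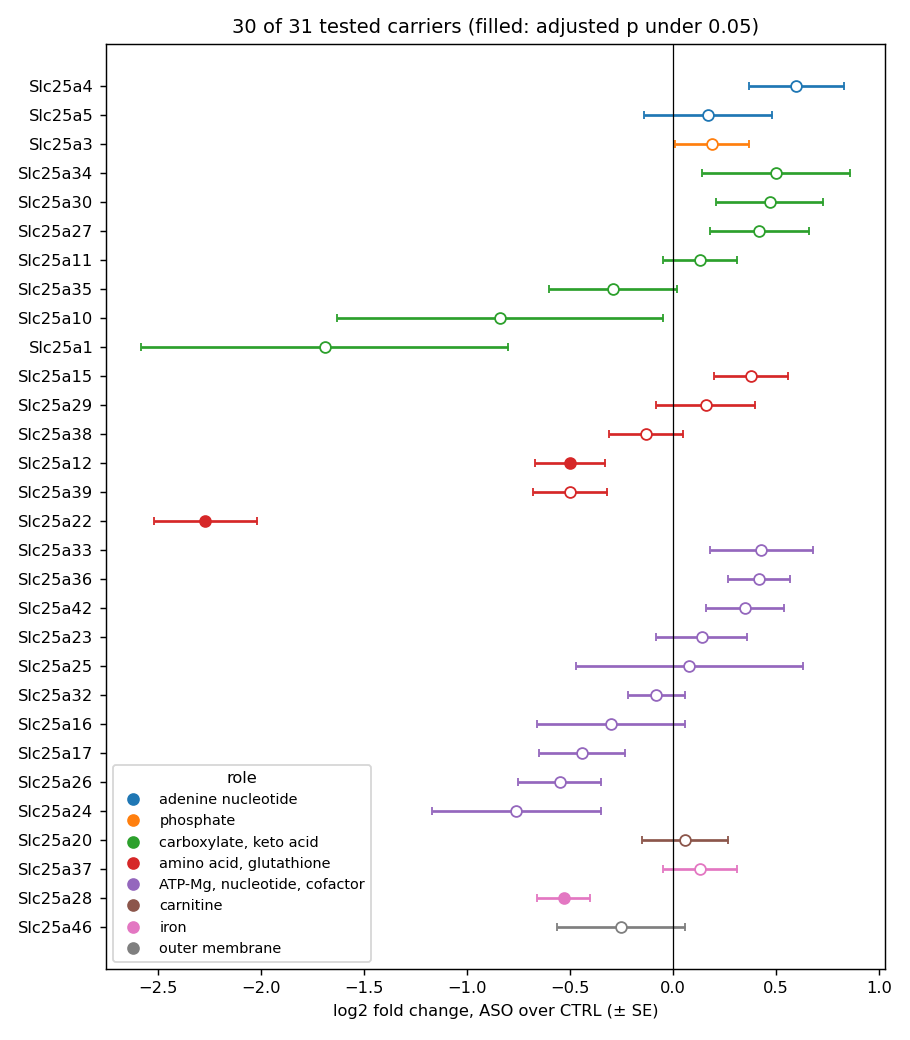
Log2 fold change (ASO over CTRL, horizontal axis) with its standard error for 30 of the 31 tested carriers, ordered and coloured by role. Filled points passed the test: Slc25a22 lies at -2.27, Slc25a28 at -0.53 and Slc25a12 at -0.50, and every open point between -1.69 and 0.60.

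Of 6 tested carriers of amino acids, glutathione and ornithine, 2 were lower and 4 did not pass, beside 17.5% lower among all genes tested. Slc25a22 brings glutamate into the matrix. Its levels were 5.79, 6.8, 9.73, 8.35 and 6.6 CPM in the ASO libraries and 37.7, 20.1, 41.5, 42.5 and 40.4 CPM in CTRL. The lowest control library (CTRL 2) was above the highest ASO library, and the groups did not overlap. The log2 fold change was -2.27 (SE 0.25), the lowest of the 31, with an adjusted p of 1.4e-04 by edgeR. A two-sided exact permutation test over all labellings of the 10 libraries gave p = 0.0079, the smallest p it can give for 5 against 5. Any gene whose groups do not overlap gets this p, and 21.4% of all genes tested had such groups. The raw counts behind these levels were between 12 and 23 with the ASO and between 43 and 84 in CTRL. In the 19 alternative fits that could measure it the adjusted p was at most 0.0012, and all of these used the same counted segments.

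The place at which Slc25a22 was counted bears on this value. Its annotated 3′ ends overlap one another, which left no more than 5 bp of any canonical 3′UTR segment to a single identifier, and 94.7% of its counts came from internal segments. The largest share, 55% of the counts, fell on a segment at chr7:141011552-141012051 (minus strand, 1895 bp upstream of the most distal segment), made of 311 coding and 189 intron bases and assigned to a transcript subject to nonsense-mediated decay. There the log2 fold change was -2.82 (SE 0.33, adjusted p = 6.4e-05 by edgeR over all segments). On 35 bp of coding sequence at chr7:141011099-141011133, which held 30.7% of the counts, it was -1.78 (SE 0.40, adjusted p = 0.0035 by edgeR). The test of a difference between them did not pass (edgeR diffSpliceDGE, adjusted p = 0.30 and 0.45). No value for its distal 3′UTR could be had from these counts. Over all genes 48.6% of the tested internal segments were lower, and their median log2 fold change was -0.71. The part of this general fall in the value of Slc25a22 was not tested.

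Slc25a12 exports aspartate in exchange for glutamate and is the calcium-regulated partner of the oxoglutarate carrier in the malate-aspartate shuttle. The ASO libraries held 794, 888, 504, 836 and 773 CPM, and the CTRL libraries 1149, 1067, 859, 1224 and 1054 CPM. ASO 2 lay above CTRL 3, so the groups overlapped by these libraries. The log2 fold change was -0.50 (SE 0.17, adjusted p = 0.043 by edgeR), and the exact permutation test gave p = 0.016. This call was lost on leaving out ASO 1 (log2 fold change -0.48), ASO 3 (-0.34), ASO 4 (-0.50), ASO 5 (-0.48), CTRL 1 (-0.47), CTRL 2 (-0.49), CTRL 4 (-0.45) or CTRL 5 (-0.51), with adjusted p between 0.06 and 0.11 by edgeR. Most of its counts (93.7%) fell on a segment at chr2:71105034-71105533 (minus strand), which holds 468 bases of the canonical 3′UTR and 32 coding bases and lies 3627 bp upstream of the most distal one. That segment gave a log2 fold change of -0.46 (SE 0.17) and the most distal one, with 6.25% of the counts, gave -0.51 (SE 0.15, adjusted p = 0.018 by edgeR), so that the direction was shared by both ends of the 3′UTR. As a share of the summed carrier level, Slc25a12 made up between 5.54% and 11.4% in the ASO libraries and between 12.7% and 16.8% in CTRL. This share was not tested, and it also moves with the other carriers in the sum. Among them Slc25a4 held a mean of 27.5% with the ASO and 20% in CTRL.

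The other members of that group did not pass. Slc25a39, which carries glutathione into the matrix, was at 118, 93.4, 60.5, 83.9 and 84.4 CPM with the ASO and at 117, 102, 152, 116 and 134 CPM in CTRL, with overlap by ASO 1 and a log2 fold change of -0.50 (SE 0.18, adjusted p = 0.051 by edgeR). It too was counted on internal segments alone, and 1 of them, with 34.5% of its counts, overlaps Gm72261 on the opposite strand by 101 bp. The strand setting of the counting is not given in the sources used here. The ornithine carrier Slc25a15 was at 43.0 ± 4.66 CPM in the ASO group and 32.9 ± 8.52 CPM in CTRL (mean ± SD, n = 5 each; adjusted p = 0.13 by edgeR). The basic amino acid carrier Slc25a29 (log2 fold change 0.16, SE 0.24) and the glycine carrier Slc25a38 (-0.13, SE 0.18) were closer to 0.

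**Figure D2:**
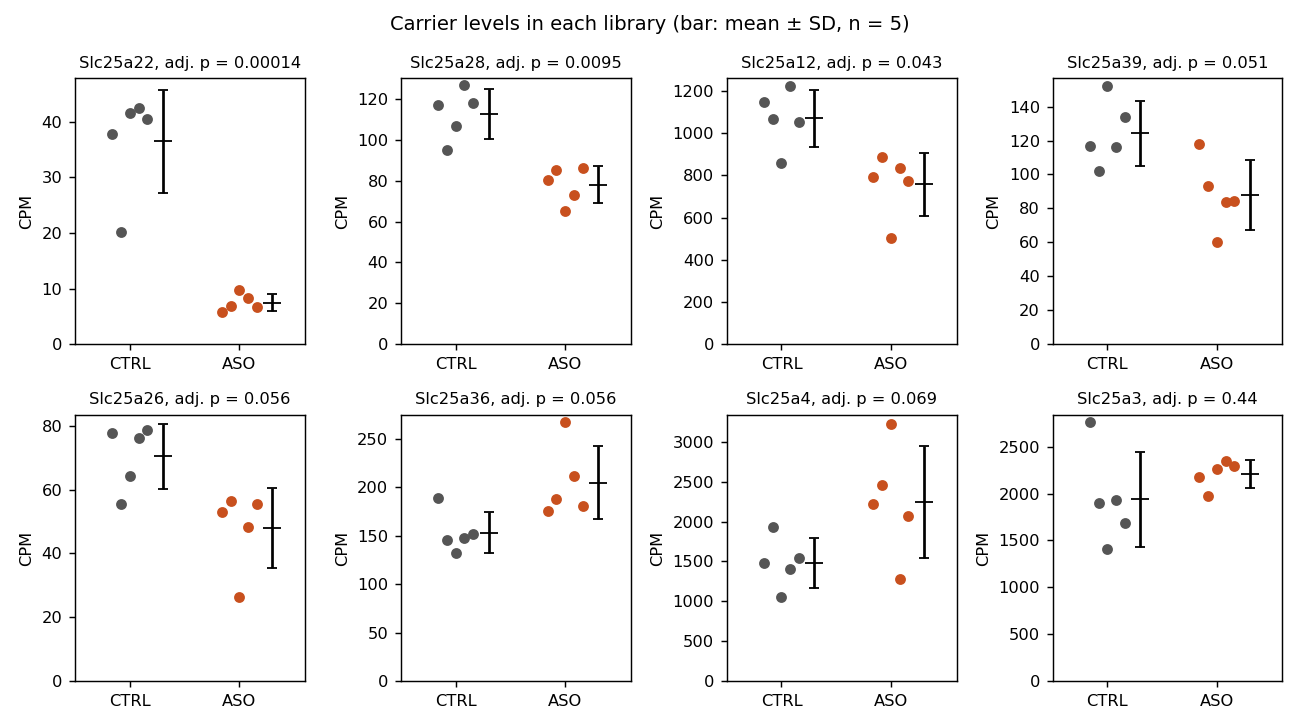
Levels in CPM of 8 carriers in each library, with the mean and SD (n = 5) beside the points of each group and the edgeR adjusted p above each panel. The groups are apart in Slc25a22 and Slc25a28 and overlap in the other panels, by ASO 2 and CTRL 3 in Slc25a12.

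Of the 2 iron carriers 1 was lower, beside 17.5% of all genes tested. Slc25a28 was at 80.6, 85.4, 65.1, 73.0 and 86.3 CPM with the ASO and at 117, 95.1, 107, 127 and 118 CPM in CTRL. Every ASO library was under every control library. By edgeR the log2 fold change was -0.53 (SE 0.13, adjusted p = 0.0095), and leaving out any of the 10 libraries kept the adjusted p at or under 0.03. Its paralog Slc25a37 (mitoferrin-1) was at 68.1 ± 13.9 CPM and 62.4 ± 13.6 CPM (mean ± SD, n = 5 each), with a log2 fold change of 0.13 (SE 0.18, adjusted p = 0.64 by edgeR). The difference between the 2 paralogs was not tested.

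The fall of Slc25a28 was seen on 1 of its segments. The internal one at chr19:43652779-43653278 (minus strand, 304 coding and 196 intron bases, 66.8% of its counts) fell from 81.0 to 47.8 CPM, with a log2 fold change of -0.72 (SE 0.17, adjusted p = 0.0042 by edgeR). On the segment at its 3′ end, chr19:43652240-43652739, the levels were 32.1 CPM in CTRL and 30.3 CPM with the ASO, with a log2 fold change of -0.04 (SE 0.18, adjusted p = 0.87 by edgeR). The test of the difference between the segments did not pass (edgeR diffSpliceDGE, adjusted p = 0.22 and 0.55). With counts limited to canonical 3′UTR segments, the gene's log2 fold change was -0.18 (adjusted p = 0.46 by edgeR). Over all genes the internal segments had a median log2 fold change of -0.71 and 48.6% of them were lower. The value of -0.72 on the internal segment of Slc25a28 was therefore that of a typical internal segment.

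The adenine nucleotide translocases and the phosphate carrier serve ATP synthase, and none of the 3 tested passed. Slc25a4 (ANT1), the translocase isoform of muscle and heart, was at 2214, 2464, 3226, 1277 and 2068 CPM with the ASO and at 1482, 1935, 1049, 1401 and 1537 CPM in CTRL. In 4 of the 5 ASO libraries it lay above every control library, and in ASO 4 it was below all but CTRL 3. The log2 fold change of 0.60 (SE 0.23) had an adjusted p of 0.069 by edgeR, which was 0.011 without ASO 4 (log2 fold change 0.77) and 0.046 without CTRL 2 (0.72). Slc25a5 (ANT2), the isoform of proliferating cells, held 130, 116, 166, 182 and 114 CPM with the ASO and 135, 74.1, 247, 76.1 and 95.4 CPM in CTRL, with a log2 fold change of 0.17 (SE 0.31, adjusted p = 0.70 by edgeR). Slc25a31 (ANT4), the isoform of the germ line, had 0 counts in every library, which allows up to 3 counts per library. Within libraries the CPM of Slc25a4 was between 4.25 and 26.1 times that of Slc25a5 in CTRL and between 7.02 and 21.3 times with the ASO, so the isoform ratio overlapped between the groups.

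Slc25a3, the phosphate carrier, was at 2174, 1973, 2261, 2350 and 2290 CPM with the ASO and at 2769, 1899, 1406, 1934 and 1684 CPM in CTRL. The ASO libraries were close together (SD 147 CPM) and all of them lay within the range of CTRL (SD 510 CPM). Its log2 fold change was 0.19 (SE 0.18, adjusted p = 0.44 by edgeR). Nearly all of its counts (98.5%) fell on an internal segment with 176 bases of 3′UTR, 236 coding and 88 intron bases. Its 3′ end lies 217 bp upstream of that of the most distal segment. The most distal segment of Slc25a3, with 1.49% of the counts, gave -0.27 (SE 0.29). The miR-22 seed match of Slc25a3, 167 bp from the end of the canonical 3′UTR, lay outside the counted segments.

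Per kb of uniquely counted bases the CTRL levels were led by Slc25a3 at 3563 CPM per kb (SD 937), followed by Slc25a4 at 2961 (SD 634), Slc25a11 at 1681 (SD 474), Slc25a12 at 1071 (SD 137) and Slc25a20 at 816 (SD 220). On this measure Slc25a3 and Slc25a4 differed by less than their spread. Within libraries the ratio of Slc25a4 to Slc25a3 per kb was between 0.582 and 1.11 in CTRL and between 0.591 and 1.55 with the ASO. Slc25a12 and Slc25a20 also lay within their combined spread. The measure divides by all unique bases of a gene, those with few counts included. Of the counts of Slc25a3, 98.5% fell on 327 of 544 unique bp, and of those of Slc25a12, 93.7% fell on 500 of 1000. The order of these carriers, and whether they differ by more than their spread, therefore depends on the bases taken. The 5 carriers together made up most of the summed carrier level, and the share of all others was between 16.7% and 38% in CTRL and between 17.1% and 20.7% with the ASO. The summed level over the 46 carriers was 8064 ± 643 CPM in the ASO group and 7407 ± 736 CPM in CTRL (mean ± SD, n = 5 each), with ranges that overlapped (7327 to 9104 and 6780 to 8652 CPM).

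**Figure D3:**
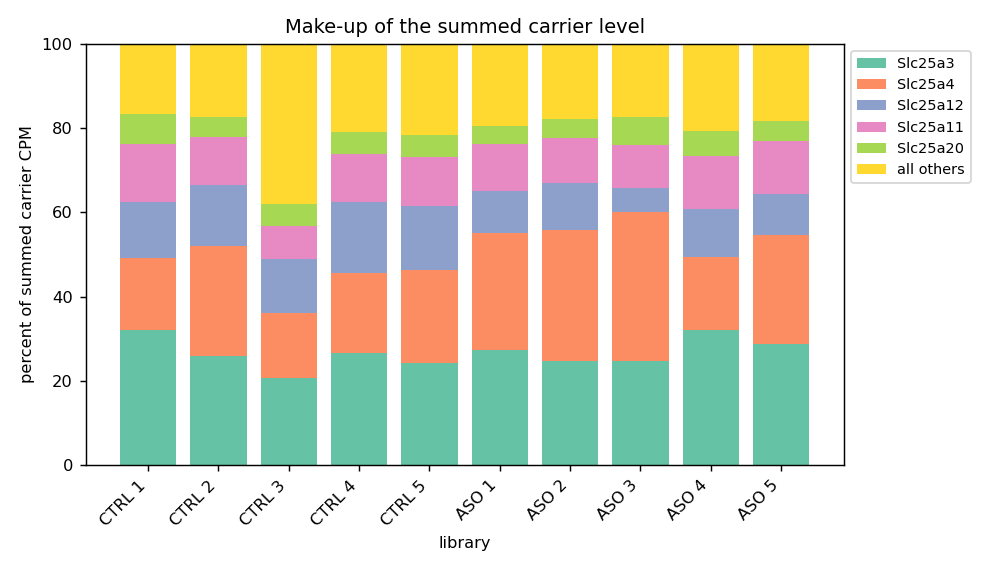
Share of the summed carrier CPM held by the 5 most abundant carriers and by all others together, in percent, in each library. Slc25a12 holds 12.7% to 16.8% in CTRL and 5.54% to 11.4% with the ASO, and in CTRL 3 the others reach 38%. The shares were not tested, and the CPM of Slc25a12 itself overlaps between the groups.

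Of the carboxylate, keto acid and uncoupling protein-like carriers, 7 were tested and none passed. Slc25a11, the oxoglutarate/malate carrier, was with the ASO at 885, 855, 942, 914 and 995 CPM, against 1203, 826, 537, 828 and 810 CPM in CTRL. Its log2 fold change was 0.13 (SE 0.18, adjusted p = 0.64 by edgeR). Slc25a34, an orphan member, was at 65.7 ± 25.7 CPM and 46.3 ± 25.9 CPM, Slc25a30 at 28.6 ± 5.42 CPM and 20.6 ± 7.9 CPM, and Slc25a27 (UCP4) at 29.6 ± 2.87 CPM and 22.2 ± 7.78 CPM with the ASO and in CTRL (mean ± SD, n = 5 each). These had log2 fold changes between 0.42 and 0.50 and adjusted p of 0.19 or more by edgeR, and Slc25a35, which overlaps Rangrf on the opposite strand by 33 bp, had -0.29 (SE 0.31).

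The citrate carrier Slc25a1 and the dicarboxylate carrier Slc25a10, which supply lipid synthesis in fat and liver, varied widely between the libraries of both groups. Slc25a1 was at 140, 44.2, 39.3, 64.7 and 10.4 CPM with the ASO and at 12.7, 83.5, 714, 100 and 48.8 CPM in CTRL. Slc25a10 was at 88.8, 46.7, 51.6, 55.9 and 14.1 CPM with the ASO and at 5.66, 46.2, 328, 56.1 and 24.7 CPM in CTRL. Within its group each was highest in CTRL 3 and in ASO 1 and lowest in CTRL 1 and in ASO 5. Adipoq, the adipocyte hormone adiponectin, followed at 451, 233, 308, 179 and 18.9 CPM with the ASO and 2.83, 241, 1612, 322 and 149 CPM in CTRL. The summed level of 9 adipocyte markers was between 4612 and 12883 CPM with the ASO and between 3920 and 24627 CPM in CTRL, where CTRL 3 held the highest value. Car3 made up a large part of this sum, at 2392 to 9577 CPM with the ASO and 2667 to 10886 CPM in CTRL. In CTRL 1, where Adipoq was at 2.83 CPM, Car3 was at 5294 CPM, so the sum did not follow Adipoq across libraries. None of the 7 tested adipocyte markers passed the test (median log2 fold change -0.97), and Cfd was at no more than 3 counts per library. The log2 fold change of Slc25a1 was -1.69 (SE 0.89, adjusted p = 0.17 by edgeR) and that of Slc25a10 -0.84 (SE 0.79, adjusted p = 0.44). Without CTRL 3 they were -0.04 (SE 0.62) and 0.64 (SE 0.54), so CTRL 3 set the size of the first and the direction of the second. The part of adipose tissue in these levels was not tested beyond the values given.

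**Figure D4:**
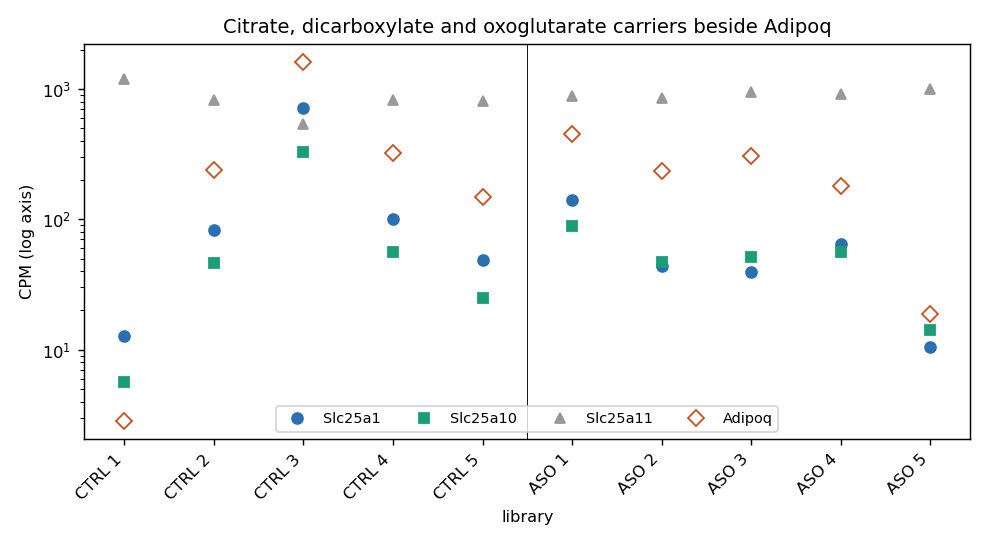
Levels in CPM (log axis) of Slc25a1, Slc25a10, Slc25a11 and the adipocyte gene Adipoq in each library. Slc25a1, Slc25a10 and Adipoq are highest in CTRL 3 at 714, 328 and 1612 CPM, where Slc25a11 has its lowest value of 537 CPM.

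Carnitine/acylcarnitine carrier Slc25a20, through which long-chain fatty acids enter the matrix for oxidation, was at 354, 348, 612, 430 and 385 CPM with the ASO and at 605, 353, 352, 376 and 355 CPM in CTRL. In each group 1 library, ASO 3 and CTRL 1, stood above the other 4. Its log2 fold change was 0.06 (SE 0.21, adjusted p = 0.84 by edgeR). Slc25a46, the outer membrane member, was at 4.27 ± 1.01 CPM and 5.02 ± 1.65 CPM (mean ± SD, n = 5 each).

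Of the carriers of ATP-Mg, other nucleotides and cofactors, 11 were tested and none passed. Slc25a36, which carries pyrimidine nucleotides, was at 176, 188, 268, 212 and 181 CPM with the ASO and at 189, 146, 132, 148 and 152 CPM in CTRL. It overlapped by CTRL 1 alone, which was above ASO 1, ASO 2 and ASO 5, and its log2 fold change of 0.42 (SE 0.15) had an adjusted p of 0.056 by edgeR, or 0.031 without CTRL 1 (log2 fold change 0.51) and 0.042 without ASO 1 (0.48). Slc25a26, the S-adenosylmethionine carrier, was at 53.1, 56.5, 26.2, 48.4 and 55.6 CPM with the ASO and at 77.8, 55.5, 64.2, 76.1 and 78.6 CPM in CTRL. The groups overlapped by CTRL 2, and the log2 fold change of -0.55 (SE 0.20) had an adjusted p of 0.056 by edgeR, or 0.044 without CTRL 2 (log2 fold change -0.63).

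The ATP-Mg/phosphate carriers, which set the matrix adenine nucleotide pool in response to calcium, were Slc25a23 at 77.5 ± 11.1 CPM in the ASO group and 70.3 ± 25.4 CPM in CTRL, Slc25a24 at 8.27 ± 5.5 and 14.1 ± 5.96 CPM, and Slc25a25 at 39.6 ± 16.5 and 37.9 ± 32.9 CPM (mean ± SD, n = 5 each). Slc25a25 ranged from 8.96 to 84.2 CPM within CTRL. For Slc25a24 the log2 fold change was -0.76 (SE 0.41, adjusted p = 0.18 by edgeR), and without ASO 4, its highest ASO library, it was -1.20 (adjusted p = 0.031). The coenzyme A carrier Slc25a42 was at 114 ± 28.5 and 88.9 ± 17.7 CPM, with an adjusted p of 0.19 by edgeR, and 68 bp of its segment overlap Tmem161a on the opposite strand. The peroxisomal cofactor carrier Slc25a17 (log2 fold change -0.44, SE 0.21), Slc25a16 (-0.30, SE 0.36), the folate carrier Slc25a32 (-0.08, SE 0.14) and the pyrimidine nucleotide carrier Slc25a33 (0.43, SE 0.25) had adjusted p between 0.13 and 0.69 by edgeR.

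The counted segments of the carriers were also tested on their own. Of 35 tested carrier segments in canonical 3′UTRs, 3 were higher and 3 lower, against 18% and 17.2% of such segments in all genes. The higher ones belonged to Slc25a4, Slc25a36 and Slc25a37, and the lower ones to Slc25a12 and Slc25a32. The only segment of Slc25a4 passed here (log2 fold change 0.65, SE 0.23, adjusted p = 0.042 by edgeR), whereas the gene did not in the gene test (0.069). Of 12 internal carrier segments, made mostly of coding or intron bases, 7 were lower (58.3%) and 0 higher, where 48.6% of internal segments of all genes were lower and 8.82% higher. Their median log2 fold changes were 0.11 and -0.70 in the carriers and 0.11 and -0.71 in all genes. The 7 belonged to Slc25a22 (2 segments), Slc25a17, Slc25a28, Slc25a36, Slc25a38 and Slc25a39. The shift of counts toward distal segments in the ASO libraries, given above, moved with these values, and whether it arose in the muscle or in the libraries cannot be told apart here.

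Against the other segments of the same gene, 4 of 30 tested carrier segments were lower (13.3%) and 0 higher (edgeR diffSpliceDGE), where 21.1% and 6.75% of all tested segments were. In Slc25a17 the most distal segment had a log2 fold change of 0.11 (SE 0.25), and a segment 19033 bp upstream, at chr15:81222145-81222644 (minus strand), fell from 11.6 to 2.73 CPM with a log2 fold change of -2.02 (SE 0.37) and a difference from the rest of the gene of -1.69 (adjusted p = 3.9e-04). In Slc25a38 the most distal segment was at 0.47 (SE 0.21) and one 3828 bp upstream, at chr9:119949243-119949742 (plus strand), at -1.56 (SE 0.35), with a difference of -1.47 (adjusted p = 7.4e-04). In Slc25a36 the segment that held 80% of its counts rose by 0.68 (SE 0.17, adjusted p = 0.0080 by edgeR) while one 3956 bp upstream of the most distal was at -1.16 (SE 0.40), with a difference of -1.65 (adjusted p = 1.3e-04). In Slc25a37 the most distal segment rose by 0.55 (SE 0.17, adjusted p = 0.019 by edgeR) and one 2328 bp upstream was at -0.67 (SE 0.29), with a difference of -0.84 (adjusted p = 0.028), but both overlap Gm63459 on the opposite strand. For Slc25a32 the segments gave 0.43 (SE 0.19) at the distal end and -0.88 (SE 0.25, adjusted p = 0.013 by edgeR) 3737 bp upstream. The difference did not pass (edgeR diffSpliceDGE, adjusted p = 0.058).

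**Figure D5:**
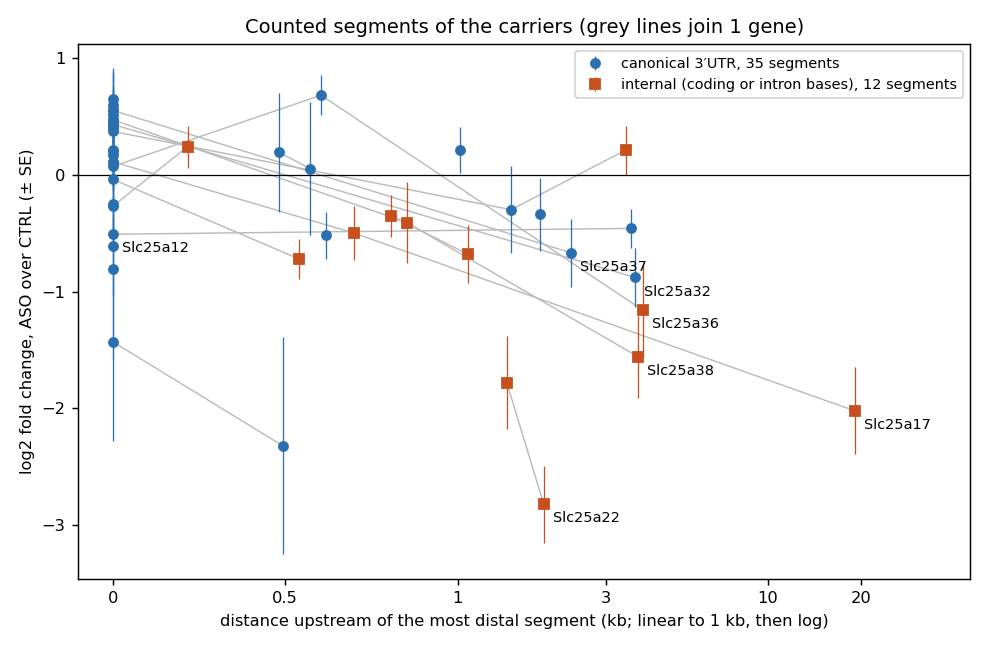
Log2 fold change (ASO over CTRL, vertical axis, with standard error) of the 47 tested carrier segments against their distance upstream of the gene's most distal segment in kb, on an axis linear to 1 kb and logarithmic beyond. Internal segments (squares) lie lower than canonical 3′UTR segments (circles), with medians of -0.70 and 0.11.

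The remaining 15 carriers were not tested. Of these 7 had 0 counts in every library. Slc25a13, Slc25a44, Slc25a47 and Slc25a51 had at most 1 bp that was not shared with another segment, so a count of 0 says nothing of their level. Slc25a31, Slc25a41 and Slc25a54 had 0 counts on 500, 152 and 535 unique bp. The others (Slc25a2, Slc25a14, Slc25a18, Slc25a21, Slc25a40, Slc25a45, Slc25a48 and Slc25a53) had between 0 and 9 counts per library. Slc25a43 was not analysed here.

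Relatives of the family that carry another name were looked at beside it. Mtch1, an insertase of the mitochondrial outer membrane, fell with a log2 fold change of -1.03 (SE 0.24, adjusted p = 0.0077 by edgeR), from 66.1 ± 13.2 CPM in CTRL to 32.4 ± 10.5 CPM. Its paralog Mtch2 rose by 0.50 (SE 0.12, adjusted p = 0.0099 by edgeR), from 319 ± 30.6 CPM to 452 ± 40.3 CPM, and both were counted on internal segments alone. Ucp3, the uncoupling protein of muscle, was at 736 ± 286 CPM in the ASO group and 550 ± 128 CPM in CTRL (adjusted p = 0.28 by edgeR), while Ucp1 and Ucp2 were not tested.

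Of 12 tested genes that import or insert carriers, 1 was higher and 2 lower, with a median log2 fold change of 0.08, beside 11.7% higher and 17.5% lower among all genes tested. Timm10b, a small chaperone of the intermembrane space, rose by 0.64 (SE 0.17, adjusted p = 0.014 by edgeR). Agk, a subunit of the TIM22 translocase, fell by 1.13 on the log2 scale (SE 0.29, adjusted p = 0.012), and the chaperone Timm8a1 fell by 1.09 (SE 0.25, adjusted p = 0.0064). Agk was low, at 9.31 ± 1.43 CPM in CTRL and 4.17 ± 1.62 CPM with the ASO (mean ± SD, n = 5 each). Of its counts 50% fell on internal segments, and it was not tested with at least 10 counts in every library or on the most distal segment alone. Of 17 tested genes of other mitochondrial membrane transport, 3 were higher and 2 lower (median 0.23), beside the same background of 11.7% and 17.5%. They included Vdac2, an outer membrane channel (0.47, SE 0.16, adjusted p = 0.047 by edgeR), the calcium uniporter regulator Micu2 (0.54, SE 0.16, adjusted p = 0.021), the ion exchanger Letm1 (-1.25, SE 0.22, adjusted p = 0.0017) and Cpt1b, which makes the acylcarnitines that Slc25a20 carries (-0.60, SE 0.21, adjusted p = 0.043). On the most distal segment alone Letm1 was at -0.52 (adjusted p = 0.15 by edgeR) and in canonical 3′UTRs alone at -0.33 (adjusted p = 0.32), and Cpt1b was counted on internal segments alone. The call of Micu2 was lost without CTRL 4 (0.52) or CTRL 5 (0.45), that of Vdac2 without ASO 1, 3 or 5 or CTRL 2, 3, 4 or 5 (0.38 to 0.52) and that of Cpt1b without ASO 1, 2, 3 or 5 or CTRL 1, 4 or 5 (-0.62 to -0.39). Of 8 tested subunits of ATP synthase, the user of what Slc25a3 and Slc25a4 carry, 3 were higher and 0 lower (median 0.31), beside 11.7% and 17.5% of all genes tested. Atp5f1b rose by 0.58 (SE 0.20, adjusted p = 0.041 by edgeR), Atp5f1e by 0.75 (SE 0.24, adjusted p = 0.033) and Atp5po by 0.59 (SE 0.20, adjusted p = 0.044). All 3 calls were lost on leaving out ASO 3, ASO 5, CTRL 3, CTRL 4 or CTRL 5, and those of Atp5f1b and Atp5po also without ASO 4 or CTRL 2, with log2 fold changes from 0.48 to 0.70 in these fits.

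Markers of other cell types were set beside the carriers. Of tested markers, 4 of 5 for fast fibers were higher (Actn3, Mybpc2, Atp2a1 and Tnnc2, with log2 fold changes from 0.79 to 1.79). For slow fibers 1 of 6 was higher (Myl6b, 1.72). For macrophages 1 of 4 was lower (Mrc1, -1.51), and for fibroblasts 1 of 4 was lower (Lum, -1.72). None of 5 endothelial, 4 blood and 4 Schwann cell markers passed. Beside these counts, 11.7% of all genes tested were higher and 17.5% lower. Without ASO 4 the value of Myl6b was 0.71 (adjusted p = 0.056 by edgeR) and without CTRL 3 that of Mrc1 was -0.92 (adjusted p = 0.10). The slow fiber markers summed to between 53.5 and 6112 CPM with the ASO and between 79.2 and 2023 CPM in CTRL. The summed macrophage level was between 57.5 and 455 CPM with the ASO and between 195 and 1199 CPM in CTRL.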

How the data were processed

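Bulk mRNA of GAS from 5 ASO-treated and 5 saline-treated DIO mice was sequenced from stranded libraries. After trimming (fastp) and alignment to GRCm39 (STAR), the authors used featureCounts on Gencode M25 to count read pairs in the last 500 bp of 3′UTRs, and they deposited raw counts per segment without normalization. A total of 4 other per-sample columns were not used here. Of 52423 segments, 52361 were matched to GENCODE M39 and summed per gene, and the 62 others (0.0197% of counts) were kept as features of their own. The labels do not say how mice were housed or batched, so p-values measure the spread between these 10 mice. Shared replicate numbers did not pair the libraries, and no pair of libraries agreed within sampling noise.

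The gene test was that of edgeR 4.0.16, run in R 4.3.3 (TMM, filterByExpr, quasi-likelihood test, Benjamini-Hochberg adjustment at 0.05), and each segment in the same way. Segments were set against the rest of their gene with diffSpliceDGE. Permutation tests were exact and two-sided, on log2(CPM + 1). The alternatives were RLE, upper quartile and total-count scaling, no filter, at least 10 counts in every library, DESeq2 1.42.0, limma-voom (limma 3.58.1), the replicate block, the most distal segment, libraries thinned to 1606909 counts and leaving out each library. Segment fits and the limit to canonical 3′UTRs were added after seeing the data. In data simulated for this comparison, edgeR recovered 97 of 102 genes changed by log2 2 and 46 of 88 changed by log2 1. A floor of 3 counts covers counting error only. Named genes are the carriers past the threshold, the 8 most abundant others (1 tested carrier is counted but not reported here), further carriers chosen after their values were seen, and up to 4 called members of each list. The carriers and all gene lists were chosen with earlier results of these data known. Figures and joins used Python 3.11.15 with pandas 2.3.3.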

Additional observations from a re-analysis of the deposited data

Results flagged for a closer look

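In 7 of the 62 groups of 5 libraries examined (31 carriers in each treatment), 1 library stood apart by the gap to its neighbour relative to the range of the group. For independent, normally distributed values this rule flags about 1 in 20. Several carriers here were high in the same library, CTRL 3, and the share flagged over all genes was not counted. The 7 therefore cannot be read against that rate. In CTRL 3, Slc25a1 was at 714 CPM where the other control libraries held 12.7 to 100 CPM, Slc25a10 at 328 CPM where they held 5.66 to 56.1 CPM, and the ATP-Mg/phosphate carrier Slc25a24 at 24.7 CPM where they held 10.4 to 12.6 CPM. CTRL 3 also had the highest summed level of adipocyte markers (24627 CPM) and of macrophage markers (1199 CPM), and their part in these values was not tested. In CTRL 1, Slc25a20 was at 605 CPM against 352 to 376 CPM. In CTRL 2, Slc25a22 was at 20.1 CPM against 37.7 to 42.5 CPM, and leaving CTRL 2 out moved its log2 fold change to -2.43. With the ASO, Slc25a17 was at 68.9 CPM in ASO 4 against 48.6 to 50.2 CPM, and Slc25a26 was at 26.2 CPM in ASO 3 against 48.4 to 56.5 CPM.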

How the results depend on the processing

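The fall of Slc25a22 kept its direction and its call in all 19 fits that could measure it (log2 fold change -2.46 to -2.15), and it was not measurable on the most distal segment or in canonical 3′UTRs alone. Slc25a28 kept its call in 19 of 21 fits and lost it on the most distal segment alone and in canonical 3′UTRs alone. Slc25a12 kept its call in 10 of 21. Instead of 3 carriers lower, 5 were lower with total counts and with at least 10 counts in every library, and 1 on the most distal segment alone. Instead of 0 higher, 1 was higher with RLE, 2 with upper quartile scaling, 2 with DESeq2 and 1 (Slc25a36) in canonical 3′UTRs alone. Leaving out single libraries gave 2 to 4 lower and 0 to 2 higher. The carriers' median of 0.08 became -0.12 with total counts, a scaling that moved the median of all genes by -0.18, and -0.14 on the most distal segment alone; leaving out libraries gave 0.01 to 0.13. Over all genes 528 were higher and 1821 lower with total counts, and 231 and 337 among 5093 on the most distal segment alone, against 916 and 1365. The causes were not tested.

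Reversals of direction, none past the threshold, were as follows. With total counts Slc25a11 was at -0.05, Slc25a20 at -0.12, Slc25a5 at -0.03 and Slc25a37 at -0.05. On the most distal segment alone Slc25a3 was at -0.60, Slc25a11 at -0.15, Slc25a20 at -0.23, Slc25a36 at -0.25, Slc25a5 at -0.15, Slc25a38 at 0.14 and Ckm at -0.07. In canonical 3′UTRs alone Slc25a3 was at -0.41, Slc25a20 at -0.04 and Slc25a38 at 0.33. With limma-voom Slc25a10 was at 0.11. Leaving out single libraries took Slc25a10 from -1.15 to 0.64, Slc25a11 from -0.00 to 0.29, Slc25a20 from -0.08 to 0.25 and Slc25a38 from -0.22 to 0.03. Same-numbered libraries did not deviate together (correlations of deviations -0.427 to 0.165), no ASO library correlated best with its own number, and with the replicate block the same count of carriers, 3, was lower and 0 higher, with Slc25a22 at -2.25. Among other genes named, Vdac2, Cpt1b, Atp5f1b, Atp5po and Atp5f1e lost their call in 12, 12, 12, 10 and 8 fits, and Mrc1, Myl6b, Tnnc2, Micu2, Letm1 and Timm10b in 9, 9, 6, 4, 2 and 1. The 15 carriers that could not be tested held 9 or fewer counts in every library.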
